A study of Rattus norvegicus with 8 samples.

Results

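Cytosolic ribosomal protein genes were followed in the ventral prostate of TRAP rats with and without telmisartan, an angiotensin II receptor blocker. They were chosen by name: a gene entered if the array annotation called it Rpl, Rps or Rplp with a number and at most one further letter, with the S6 kinases left out. This gave 74 genes on 110 probes. All 74 were well above background in the TRAP channel on at least 4 of the 8 arrays. Of these, 55 had a usable value on all 8 arrays and were tested, among 23182 tested genes in all. The other 19 lost at least one array to spots that the scanner software had marked as outliers. Rplp0 carries another name in the annotation and so fell outside the rule.

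Each array carried one male rat, with 4 controls and 4 treated rats. The TRAP rats were heterozygous, of the SD strain and 15 weeks old. Controls had basal diet and tap water, and treated rats drank telmisartan for 12 weeks from 3 weeks of age. The daily dose was 10 mg/kg according to the design text, although a label of the treated rats also names 2 mg/kg. All 8 rats carry the TRAP transgene, a viral T antigen under the prostate-directed probasin promoter, which gives prostate adenocarcinoma. TRAP RNA was labelled with Cy5. The Cy3 reference on each array came from the ventral prostate of normal F344 males, 6 weeks old, and no array had the dyes swapped. Every value below is log2 of the TRAP prostate over that reference, so 0 means equal signal and 1 means 2-fold more in the TRAP rat. Strain, age, transgene and dye differ together between the channels and cannot be told apart. In a bulk tissue sample, fewer cells of a type and less RNA per cell cannot be told apart either.

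The ribosome is built from a small subunit, which reads the messenger RNA, and a large subunit, which joins amino acids and carries the stalk that recruits translation factors. Each ribosomal protein is needed in nearly equal amounts, and surplus copies are degraded. In mammals most of these messages begin with a C followed by a run of pyrimidines, through which mTOR signalling controls their translation, a step that an array of message levels does not see. Free Rpl5 and Rpl11 can bind Mdm2 and so stabilise p53 when ribosome assembly is disturbed. Some members have tissue-restricted paralogs, of which the striated muscle form of Rpl3, Rpl3l, is the best known.

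The annotated starts of some members named below are shown first. Rps7, Rpl9 and Rpl3l lie at the low end of the control levels and Rplp1, Rps18 and Rpl13 at the high end. Rpl22 and Rpl3 are the members whose treated and control rats did not overlap. Each line gives 30 bases before and 30 bases after the RefSeq start on the GRCr8 assembly, with the unbroken pyrimidine run at the start in capitals.
Rps7, chr6:50999416-50999475, minus strand: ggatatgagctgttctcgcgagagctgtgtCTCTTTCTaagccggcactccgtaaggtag
Rpl9, chr14:43247560-43247619, plus strand: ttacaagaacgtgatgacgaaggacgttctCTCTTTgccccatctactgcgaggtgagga
Rplp1, chr8:71290843-71290902, minus strand: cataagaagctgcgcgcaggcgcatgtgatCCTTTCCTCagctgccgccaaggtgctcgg
Rps18, chr20:4933715-4933774, plus strand: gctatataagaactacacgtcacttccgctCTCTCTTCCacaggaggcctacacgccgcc
Rpl22, chr5:168117931-168117990, plus strand: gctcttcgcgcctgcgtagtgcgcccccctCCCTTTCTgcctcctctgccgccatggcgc
Rpl13, chr19:68062484-68062543, plus strand: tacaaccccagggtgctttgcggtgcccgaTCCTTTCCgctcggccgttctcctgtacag
Rpl3, chr7:113507961-113508020, minus strand: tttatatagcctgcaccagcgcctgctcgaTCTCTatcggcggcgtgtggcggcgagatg
Rpl3l, chr10:14258416-14258475, plus strand: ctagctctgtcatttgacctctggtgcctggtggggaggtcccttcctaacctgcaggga

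The RefSeq table held a promoter for 59 of the 74 genes. The annotated start was no pyrimidine in 17 of the 59, among them Rpl3l, Rpl11 and Rps6. Some of these windows hold a pyrimidine run shortly before the annotated start. Whether the annotated start is the one used in the prostate was not tested, so a message without a run cannot be told from a misplaced start. In 23 of these 59, or 39.0%, the annotated start was a C followed by at least 4 pyrimidines, against 2.63% of 27457 promoters of all genes. Within 250 bases before to 50 bases after the start and on either strand, CCGGAAG, a core that ETS factors such as GABP recognise, was present in 19 of 59 (32.2%, against 9.22% of all promoters). The YY1 core AAGATGGC was present in 5 (8.47% against 3.44%). The Sp1 core GGGCGG was present in 33 (55.9% against 34.9%), and the pyrimidine motif CTTTCC in 28 (47.5% against 26.4%). The 18 tested members with the C and pyrimidine start had a median control level of 0.07, and the 24 tested members with another start had a median of 0.02. The latter include runs that open with a T, as in Rpl13, so these groups do not separate messages with and without a run. Rps7, the lowest of the small subunit, and Rplp1, among the highest of all members, both have the C and pyrimidine start as annotated.

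The family sits at the bright end of the array. Of the 100 brightest genes 24 were members, and of the 500 brightest 42 were. The median member was brighter than 99.5% of tested genes. Saturation was rare even so, because the scanner had combined a high and a low gain. Rpl8 was saturated in Cy5 on 3 arrays, Rplp1 on 3 and Rps6 on 1, none on all 4 arrays of a group, and no member was saturated in Cy3.

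In control rats most members lay close to the reference. The median control level of the 55 tested members was -0.02, against 0.06 for all genes tested. Of the 55 members, 52 had a control mean between -1 and 1, and 41 between -0.5 and 0.5. Members stood above the reference in all 4 control rats for 17 genes and below it for 22, against 38.6% and 30.9% of all tested genes. None was more than 2-fold above the reference in all 4 controls (5.19% of all genes were), and 2 were more than 2-fold below it, Rpl3l and Rps7. The spread within the control group was small, with a median SD of 0.12 (n = 4).

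**Figure D1:**
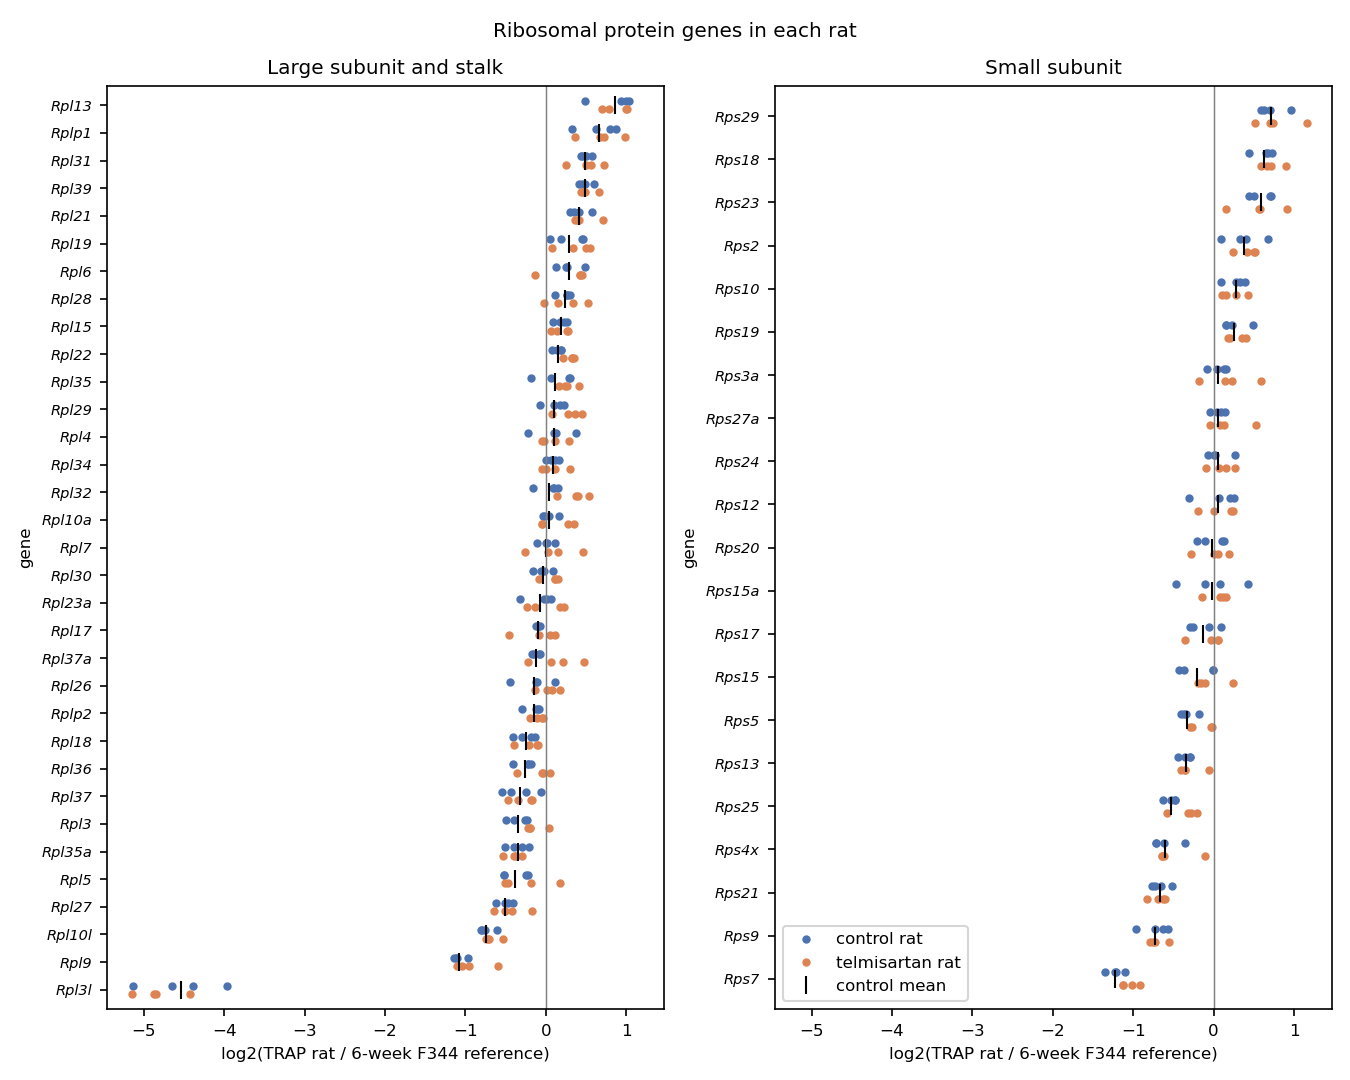
Log2 ratio of TRAP prostate over the F344 reference for 54 of the 55 tested ribosomal protein genes (rows) in each rat; blue points are the 4 control rats, orange points the 4 telmisartan rats, black bars the control mean. Rpl3l lies near -4.54 and every other gene shown has a control mean between -1.22 and 0.86.

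These levels rest on the normalization of the arrays. Loess, used throughout, draws the bulk of genes at each brightness to 0, and members make up 8.4% of the 500 brightest genes. With one centring constant per array in place of loess, the median member level was 1.41 and that of all tested genes 0.67, so the members stood 0.74 above the typical gene. Among the 500 brightest genes the 42 members stood 0.83 above the typical gene and the 458 other genes 0.69. With that centring 53 of 55 members were above the reference in all 4 controls, in place of 17. A level of the whole family above or below the reference was therefore not settled by these arrays, and the levels below are relative to genes of like brightness.

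**Figure D2:**
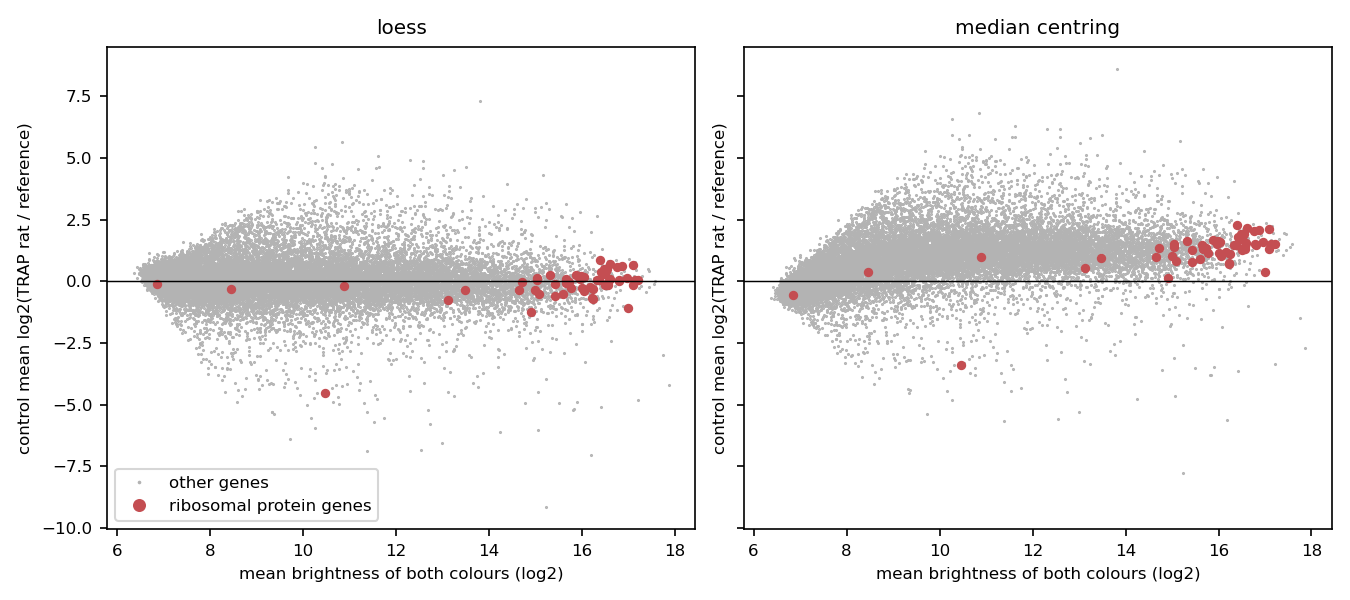
Control mean log2 ratio (vertical) against the mean log2 brightness of both colours (horizontal) for ribosomal protein genes (red) and other tested genes (grey), with loess on the left and median centring on the right. The median red level is -0.02 on the left and 1.41 on the right.

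Among the large subunit genes tested on all 8 arrays, Rpl13 was the highest in controls. Rpl8, which was not tested and was saturated on 1 control array, was at 1.17 with marked spots kept. The log2 ratio of Rpl13 was 1.03, 0.49, 0.99 and 0.94 in Control 102, 103, 104 and 106, a mean of 0.86 ± 0.25 (SD, n = 4). Control 103 was the low rat. Rplp1, an acidic protein of the stalk, had 0.63, 0.33, 0.87 and 0.80 in the same rats, 0.66 ± 0.24, and was saturated on 1 control array. Its partner Rplp2 was at -0.15 ± 0.10. The stalk proteins thus lay on opposite sides of the reference in all 4 controls. Rpl31 was at 0.49 ± 0.06, and Rpl39, a very short protein that lines the exit tunnel, at 0.49 ± 0.08.

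At the low end of the large subunit, Rpl9 had -1.12, -0.97, -1.10 and -1.14, a mean of -1.08 ± 0.08. All 4 control rats were thus near 2-fold below the reference. Rpl10l, a copy of Rpl10 that RefSeq now names Rpl10l1, was at -0.74 ± 0.09. Rpl5, which binds the 5S RNA, was at -0.38 ± 0.17 on the probe used. Other Rpl5 probes, each without a value on some array, gave -0.08 (n = 4 controls) and 0.11 (n = 3 controls). The low level of Rpl5 thus depends on the probe.

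In the small subunit Rps29 had 0.96, 0.63, 0.59 and 0.70 in controls, a mean of 0.72 ± 0.17. Rps18, near the head of the subunit, was at 0.62 ± 0.12 and Rps23, which lies in the decoding centre, at 0.59 ± 0.14. Rps19, the gene most often mutated in Diamond-Blackfan anaemia, was at 0.26 ± 0.16, and Rps27a, made as a fusion to ubiquitin, at 0.06 ± 0.08. On the low side Rps7 had -1.21, -1.23, -1.10 and -1.35, a mean of -1.22 ± 0.10. Rps9 followed at -0.72 ± 0.18, Rps21 at -0.67 ± 0.11 and Rps4x, the X-linked form of Rps4, at -0.60 ± 0.17. The values of Rps7 and Rps29 did not come near each other in any control rat, although both proteins are parts of the same subunit.

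Rpl3l stood apart from all other members. Its log2 ratio was -3.97, -5.14, -4.39 and -4.65 in Control 102, 103, 104 and 106, a mean of -4.54 ± 0.49, while Rpl3 was at -0.35 ± 0.12. It was well above background on all 8 arrays in both colours. The markers of skeletal muscle were also low: 6 of 10 listed markers were measured, all 6 were more than 2-fold below the reference in all 4 controls, and their median level was -4.38. The rat medians of these markers ranged from -4.50 to -4.25 in controls and from -4.61 to -4.33 in treated rats. Low levels were not particular to muscle markers, as the 5 measured secretory genes of the ventral prostate had a median of -6.56. The part of muscle in the Rpl3l value was not tested. The probes for both genes are shown because no long overlap between them, laid without gaps, reached 75% identity. Shorter stretches and stretches with gaps were not examined.
Rpl3 probe: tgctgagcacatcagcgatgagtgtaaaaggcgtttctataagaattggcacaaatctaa
Rpl3l probe: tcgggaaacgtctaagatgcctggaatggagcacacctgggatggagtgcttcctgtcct

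Some single-gene levels depend on which probe is read. Of the 11 members with several probes usable on all arrays, the brightest probe gave the higher control level in 7, and in 5 of them in all 4 controls. The dimmest probe of Rpl28 was not well above background in Cy3 on any array, and without that gene the counts were 6 of 10 and 4. In Rpl13 the brightest probe gave 0.86 ± 0.25 and the other 0.01 ± 0.17. In Rpl31 the brightest gave 0.49 ± 0.06 and the dimmest -0.30 ± 0.11, and in Rpl19, named after its values were seen, the probes gave 0.29 ± 0.20 and -0.37 ± 0.09. The 2 Rpl13 probes are shown because they lie in different stretches of one message: only the brightest holds the polyadenylation signal AATAAA, in capitals. The bases AATAAA occur in 13 of the 110 member probes, and whether they act as a signal in each was not tested.
Rpl13 brightest probe: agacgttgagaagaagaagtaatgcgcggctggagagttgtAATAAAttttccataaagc
Rpl13 other probe: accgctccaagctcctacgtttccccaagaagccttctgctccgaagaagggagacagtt

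**Figure D3:**
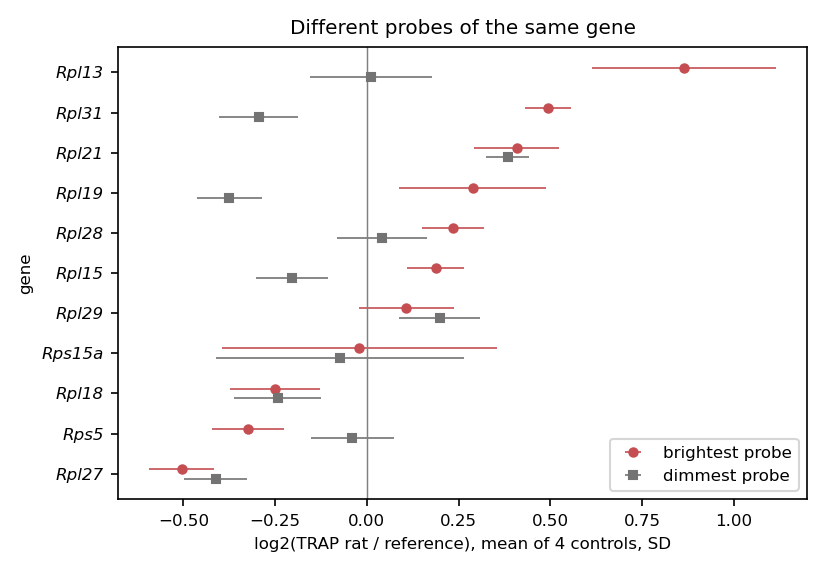
Control mean log2 ratio with its SD (n = 4) from the brightest (red circle) and dimmest (grey square) probe of each of 11 genes that have several usable probes. With loess Rpl13 differs most, 0.86 against 0.01; with median centring Rpl28 does, 1.65 against -0.12, and its dimmest probe is not well above background in Cy3.

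Paralogs can share probe sequence. A probe of Rpl10 and the probe of Rpl10l overlap by 41 bases, of which 36 are identical; the 5 mismatches are in capitals.
Rpl10 probe: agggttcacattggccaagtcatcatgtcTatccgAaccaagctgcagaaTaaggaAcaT
Rpl10l probe: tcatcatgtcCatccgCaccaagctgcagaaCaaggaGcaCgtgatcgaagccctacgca
Because the copies are this alike, the level of Rpl10l is uncertain. Rpl37 was read on a dim probe, brighter than only 43.2% of tested genes, which gave -0.32 in controls. Its other probe, without a value on some arrays, gave 0.43 in controls. Which strand the dim probe reads was not tested, so its value is not taken as a level of the Rpl37 message. The probe of Rpl37a was well above background on 6 arrays in Cy5 and on 0 in Cy3, so its ratios are no measured levels.

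No member passed the test for telmisartan. With limma and Benjamini-Hochberg adjustment over all genes, 0 of 55 members passed an adjusted p of 0.05, as did 0% of all tested genes. The smallest adjusted p of a member was 0.981. At an unadjusted p under 0.05 there was 1 of 55, Rpl32, against 4.82% of all genes. The groups did not overlap for 2 of 55, Rpl3 and Rpl22, against 2.73% of all genes. Apart from Rpl3l, the 95% confidence intervals of the 54 other members lay between -0.39 and 0.57.

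Rpl32, a large subunit protein, had 0.15, -0.15, 0.10 and 0.09 in Control 102, 103, 104 and 106 and 0.14, 0.37, 0.40 and 0.54 in Telmisartan 302, 303, 305 and 306. Telmisartan 302 lay among the controls and the other 3 treated rats lay above all controls. The difference was 0.32 (SE 0.12, limma unadjusted p = 0.0206, adjusted p = 0.981). Rpl3, which sits close to the peptidyl transferase centre, had -0.23, -0.26, -0.49 and -0.40 in controls and -0.19, 0.04, -0.20 and -0.22 in treated rats. All 4 treated rats lay above all 4 controls, by a small margin, with a difference of 0.20 (SE 0.10, limma unadjusted p = 0.0820, adjusted p = 0.981). Rpl22, known for its role in T cell development, had 0.07, 0.14, 0.19 and 0.19 in controls and 0.21, 0.33, 0.33 and 0.35 in treated rats. Its groups were also apart, with a difference of 0.16 (SE 0.08, limma unadjusted p = 0.0944, adjusted p = 0.981).

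Other members with small unadjusted p-values were higher in treated rats by 0.18 for Rps25 and 0.18 for Rps7, with overlapping groups. Rpl37a also had a small unadjusted p, but its reference signal was not above background, so no size is given. The lowest of the 8 members with a lower mean in treated rats was Rpl3l at -0.28 (SE 0.24), followed by Rpl35a at -0.04, Rps23 at -0.04 and Rps10 at -0.03. Rplp1 differed by 0.03, Rplp2 by 0.06, Rps19 by 0.03 and Rps27a by 0.11, each with an interval that covers 0.

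**Figure D4:**
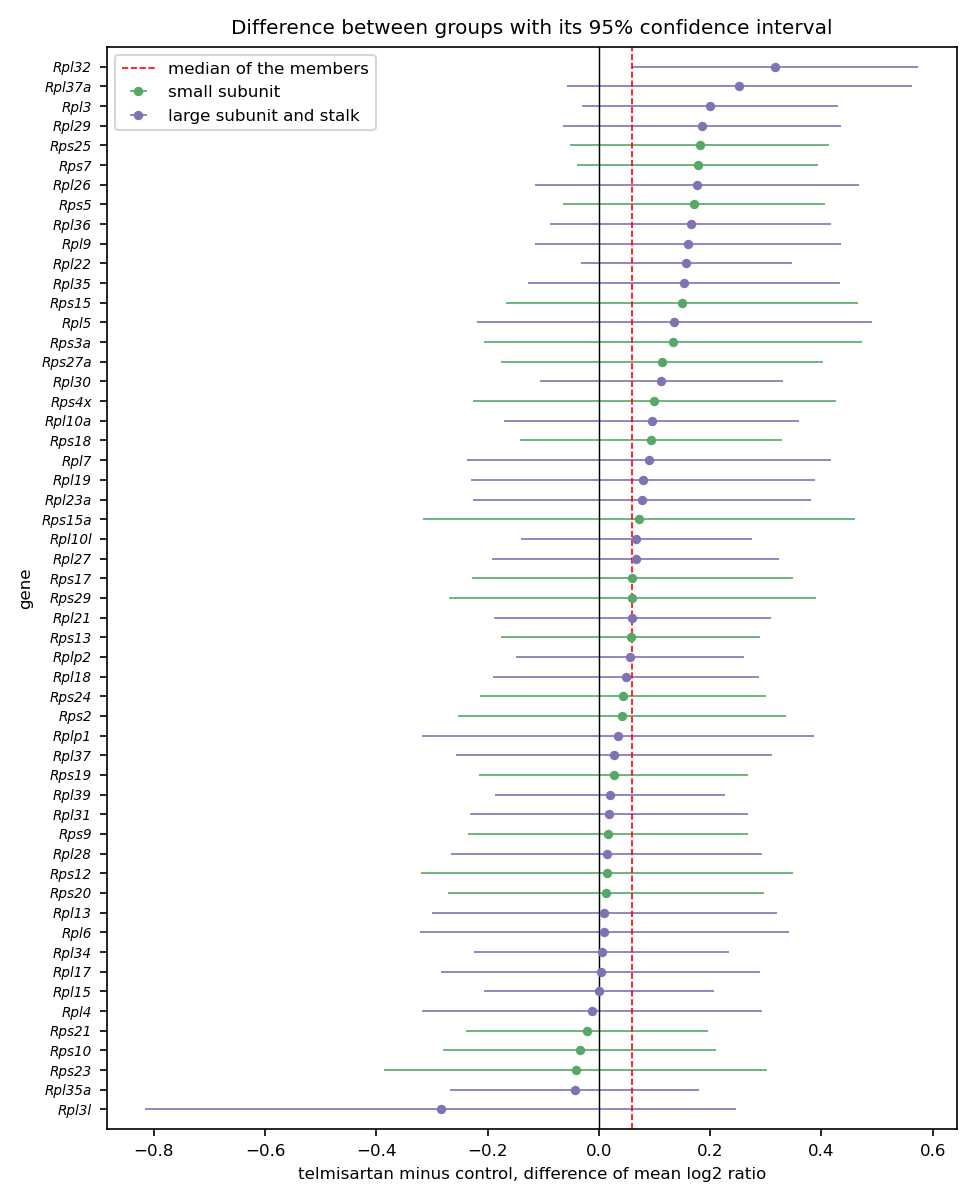
Telmisartan minus control difference of mean log2 ratio for 54 of the 55 tested genes with its 95% confidence interval; green marks the small subunit and purple the large subunit and stalk. Only the interval of Rpl32 excludes 0, and the dashed line is the member median of 0.06.

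Most differences were small and in one direction. Members were higher in treated rats for 47 of 55 genes, against 49.4% of all tested genes, with a median difference of 0.06 against -0.002. The large subunit gave 29 of 33 and the small subunit 18 of 22. Among the 500 brightest genes, 36 of 42 members were higher with loess, against 57.6% of the 458 others. With median centring in place of loess the count was 54 of 55, against 59.8% of all tested genes, and the median difference 0.20 against 0.04. Of the 500 brightest genes, 100% of the members and 88% of those outside the family were then higher. Genes of a family are not independent, and 1 rat can shift all of them at once. The median difference was 0.02 with 34 higher without Telmisartan 303, 0.03 with 34 higher without Control 103, and 0.11 with 47 higher without Telmisartan 302. Without Telmisartan 305 it was 0.04 with 36 higher. Within slide 1 the median was 0.07 with 45 higher and within slide 2 it was 0.04 with 36 higher.

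The rats of one group differed among themselves by more than the 0.06 between the groups. The member median was -0.03, -0.18, 0.04 and -0.02 in Control 102, 103, 104 and 106 and -0.13, 0.17, 0.12 and 0.05 in Telmisartan 302, 303, 305 and 306. In Control 103, 42 of 55 members lay below their mean over all rats and in Telmisartan 302, 43 of 55 did, whereas in Telmisartan 303 and Telmisartan 305 only 13 and 10 did. The 2 rats with the lowest member median also had the lowest T cell markers. All 10 listed T cell markers were measured, and their rat medians were 2.29, 0.60, 2.20 and 1.89 in controls and 0.32, 0.97, 2.10 and 1.28 in treated rats. The 8 macrophage markers gave 1.10 in Control 103 and 0.61 in Telmisartan 302, against 1.32 to 2.01 in the other 6 rats. Control 103 and Telmisartan 302 were also the lowest for B cell, basal epithelial and endothelial markers and the highest for proliferation markers. They were not the lowest pair for luminal, secretory, fibroblast, smooth muscle or skeletal muscle markers. Telmisartan 303, with the highest member median, had the next lowest T cell median, 0.97. The part of immune or other cells in the member values was not tested.

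**Figure D5:**
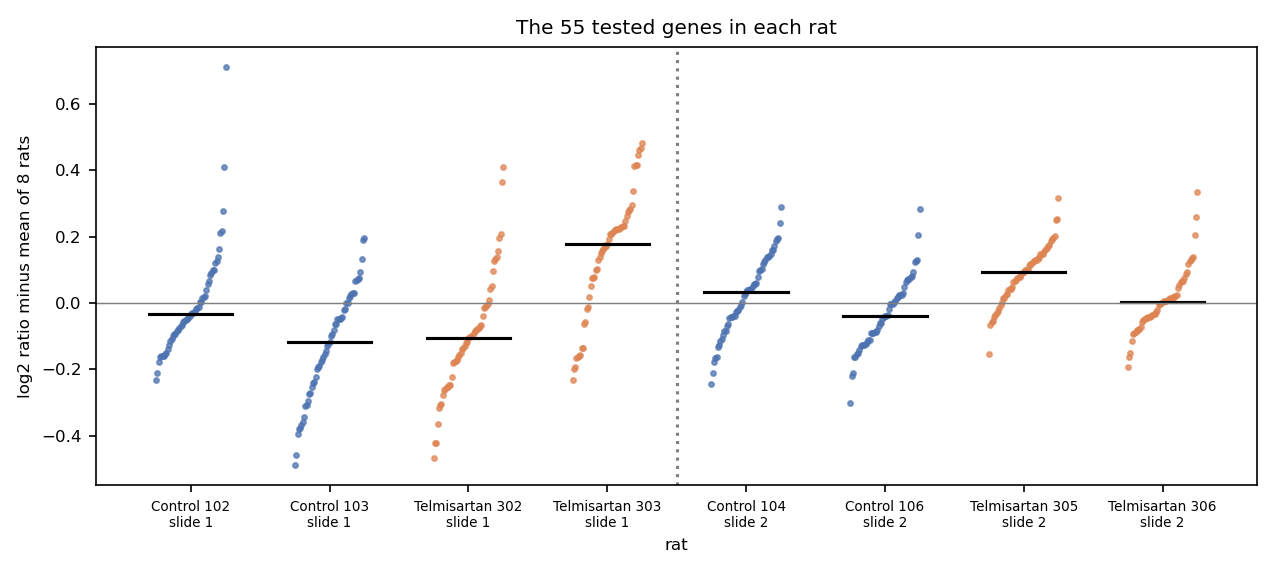
Log2 ratio minus the mean over the 8 rats for each of the 55 tested genes (points) in each rat, controls in blue and telmisartan in orange, with the median as a black bar and the slides split by a dotted line. Telmisartan 303 has the highest median, 0.18, and Control 103 the lowest, -0.12.

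The 19 untested members were read in a fit that allows missing rats. With a value on at least 3 rats of each group, 13 of them gained a result, which made 68 members: 54 higher, 14 lower, 0 at an adjusted p under 0.05 and 2 at an unadjusted p under 0.05. In that reading, where the fit leaves out 1 telmisartan rat for each gene named here, Rps3, a small subunit protein that also acts in DNA repair, was at -0.94 ± 0.25 in controls (n = 4) and differed by -0.06. Rpl11 was at 0.12 ± 0.30 and differed by 0.09, and Rps27 was at 0.31 ± 0.16 and differed by 0.02. Rps28 and Rps16 were chosen after their values were seen. Rps28 was at 1.00 ± 0.09 and differed by 0.23 (limma unadjusted p = 0.0511, adjusted p = 0.983), or by 0.17 with marked spots kept. Rps16 was at 0.70 ± 0.09 and differed by 0.26 (limma unadjusted p = 0.0464, adjusted p = 0.983), or by 0.12 with marked spots kept. Rps6, the substrate of the S6 kinases, had too few unmarked spots; with marked spots kept it was at 0.98 and differed by -0.22, with saturation on 1 array.

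Genes around the ribosome did not pass the test either. Of 48 measured ribosome biogenesis factors, 17 were higher and 31 lower in treated rats and 0 passed, with a median of -0.03; their median control level was 0.23. Of 40 translation factors 23 were higher and 0 passed, with a median of 0.02 and a control level of -0.16. Of 62 mitochondrial ribosomal proteins 34 were higher and 0 passed, with a median of 0.01. Of 4 measured ribosomal proteins whose names fall outside the rule, 2 were higher, 2 lower and 0 passed. At an unadjusted limma p under 0.05 there was 1 of 4, lower in treated rats, against 4.82% of all genes. Fau, a small subunit protein of this list, differed by -0.06 (SE 0.14). Among 22 genes of mTOR and MYC control, 0 passed; Ddit4l, an inhibitor of mTOR signalling, was higher by 0.72 (SE 0.16, limma adjusted p = 0.885), and Rps6ka3, a kinase of the RSK family, differed by -0.30 (SE 0.09, limma adjusted p = 0.933). Among 7 genes of the p53 response to ribosomal stress 5 were lower and 0 passed, with Cdkn1a at -0.21 and Mdm2 at -0.12.

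The tissue label was checked on its markers: the 5 measured secretory genes of the ventral prostate had a median of -6.56 against the reference in controls, all 6 proliferation markers were more than 2-fold above it (median 3.27), and luminal epithelial markers had a median of 0.11. Between 59.2% and 76.8% of gene spots were well above background in Cy5 and between 48.2% and 52.6% in Cy3. The number of arrays limits the precision of all comparisons, and the labels name separate rats.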

How the data were processed

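RNA of 8 TRAP ventral prostates was compared with a reference on 2-colour Agilent arrays, read with Agilent Feature Extraction 9.1 per the submitters' processing notes. The deposited intensity values are mean pixel and local background signals, uncorrected, per the file headers. The deposited log10 ratio had been background-subtracted and dye-normalized by the scanner software, per the file headers, and served as an alternative. Intensities were corrected with normexp (offset 50) and loess in limma 3.58.1 (R 4.3.3). Outlier-marked spots were left out and saturated spots kept. Probes needed a Cy5 signal well above background on 4 arrays or more and a value on all 8, which left 23182 genes after the brightest probe per gene was taken. Groups were compared with lmFit and eBayes at an adjusted p of 0.05, two-sided, with the group as the only term; slide, replicates left out and other settings were alternatives. Levels over the reference were not tested. Of 110 member probes, 90 matched a current name by accession, 19 by symbol and 1 by an older symbol (RefSeq, GRCr8). The procedure was tested on simulated data with added changes of at least 2-fold. These were larger than any member difference found here, so the recovery of smaller changes was not tested. Members and lists were chosen with earlier results of these data known. Named members were the 6 with the smallest unadjusted p in each direction, the 6 highest and 6 lowest control levels, and a fixed set; values of a few such genes are left unreported.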

Additional observations from a re-analysis of the deposited data

Results flagged for a closer look

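In 2 of 58 groups examined (4 rats each, for the named genes and the member medians), 1 rat lay far from the others; chance alone gives this in about 5% of groups. Rpl3 was at 0.0357 in Telmisartan 303, whereas the other treated rats lay between -0.22 and -0.19. Rps4x was at -0.104 in the same rat, against -0.64 to -0.62 in the other treated rats.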

How the results depend on the processing

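The count of members past an adjusted p of 0.05 stayed at 0 under all 25 alternatives. The count at an unadjusted p under 0.05 was 1; it was 4 with no background correction, 3 with the Cy5 channel alone, 2 with slide as a block, 2 with array weights, 2 with values on at least 3 rats of each group and 0 within slide 1, and 0 to 5 with 1 rat left out, 5 without Telmisartan 302 and 0 without Telmisartan 306. The median difference moved from 0.06 to 0.20 with median centring, where the median of all genes was 0.04, and the median control level from -0.02 to 1.41. With 1 rat left out, the median difference ranged from 0.018 to 0.11, the number of members higher from 34 to 52 and the median level from -0.029 to 0.017. Several small differences between the groups changed direction. With the scanner software's own ratio, the sign turned for Rpl13 (-0.0127), Rpl39 (-0.00886), Rps10 (0.000252), Rps9 (-0.00386). With median centring, the sign turned for Rpl35a (0.0604), Rps10 (0.0946), Rps21 (0.12), Rps23 (0.10). With the Cy5 channel alone, the sign turned for Rpl35a (0.0414), Rplp1 (-0.0185), Rps10 (0.0304), Rps21 (0.0309). Within slide 1, the sign turned for Rpl31 (-0.0247), Rps19 (-0.0525), Rps21 (0.0458), Rps23 (0.0537). Within slide 2, the sign turned for Rpl13 (-0.0736), Rpl35a (0.0266), Rplp1 (-0.000756), Rps18 (-0.0495), Rps9 (-0.0227). With array weights, the sign turned for Rpl13 (-0.0887), Rpl39 (-0.00945), Rplp1 (-0.00560), Rps9 (-0.0488). With outlier-marked spots kept, the sign turned for Rplp1 (-0.0277). With values on at least 3 rats of each group, the sign turned for Rpl5 (-0.00200), which was then read on another probe. With 1 rat left out, the differences that changed sign ran for Rpl13 from -0.11 to 0.0667, for Rpl31 from -0.0517 to 0.10, for Rpl35a from -0.0937 to 0.00252, for Rpl39 from -0.0287 to 0.0570, for Rpl5 from -0.00292 to 0.22, for Rplp1 from -0.0752 to 0.14, for Rps10 from -0.10 to 0.0123, for Rps19 from -0.0119 to 0.10, for Rps21 from -0.0543 to 0.0281, for Rps23 from -0.16 to 0.0918, for Rps27a from -0.00632 to 0.19, for Rps29 from -0.0664 to 0.15, for Rps4x from -0.0328 to 0.18, for Rps9 from -0.0647 to 0.0688. All of these differences were smaller than the largest member difference, and the cause was not tested. The alternatives with outlier-marked spots kept and with missing rats were chosen after seeing the data. The Cy5 channel alone gives no level over the reference. No paired analysis was possible because the rat numbers differ between the groups.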
